A study of Mus musculus with 2 samples.

Results

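Sox7, Sox17, Sox18, Sox4, Sox11 and Sox6, 6 transcription factor genes of the Sox family, were followed through day 4 embryoid bodies (EB) and yolk sacs (YS) of the mouse. The members were taken by symbol, and all 6 of 6 were found among the 33456 genes listed for each library. They were read in cells, defined as barcodes with at least 6172 (EB) or 6537 (YS) unique molecular identifiers (UMIs, each counting 1 captured transcript) and at most 10% of UMIs from mitochondrial genes. That left 1878 EB cells and 775 YS cells. The EB cells came from C57BL/6 embryonic stem cells, kept on feeders, moved to feeder-free dishes and then differentiated for 4 days in serum as floating aggregates, which the labels describe as favouring hemangiogenic mesoderm, the precursor of blood and vessels. The YS cells came from C57BL/6 yolk sacs of equal numbers of E9.5 and E10.5 embryos, which were mixed and dissociated with collagenase, and about 70% of the cells bearing the red cell antigen Ter119 were sorted out. Both suspensions were frozen, thawed, sorted for live cells and run once on the Chromium system. Each group is therefore 1 library, stages and embryos cannot be told apart in YS, no test between groups was possible and no p-value is given.

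Sox proteins bind DNA through a shared domain, the HMG box, which sits in the minor groove and bends the helix, and the family is sorted into groups by the sequence of that box. Sox7, Sox17 and Sox18 form the F group, which acts in the specification of endothelium and of arteries, and Sox17 is also a required factor of definitive endoderm. Sox4 and Sox11 form the C group, strong activators in progenitors of neural, mesenchymal and many other tissues. Sox6 belongs to the D group, which has no activation domain of its own. Sox6 acts with its relative Sox5 in cartilage and other mesenchyme, and in definitive red cells it takes part in silencing embryonic globin genes.

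A stretch of 60 coding bases is shown for each gene from the HMG box, whose whole sequence is the basis of the groups. The box was placed by likeness and not from an annotation of the domain. It is the 79-codon stretch of Sox17 whose amino acids found the best matches in the other genes. The 60 bases are the best matching part of it. All counts and identities below thus come from stretches chosen for likeness to Sox17. The bases are those of the GENCODE M21 transcripts (GRCm38), 5′ to 3′ along the coding strand, and capitals mark the bases that differ from Sox17. The stretches lie at chr14:63943879-63943938 (plus strand, exon 1 of 2), chr1:4493155-4493214 (minus, exon 4 of 5), chr2:181671237-181671296 (minus, exon 1 of 2), chr13:28952797-28952856 (minus, exon 1 of 1), chr12:27342214-27342273 (minus, exon 1 of 1) and chr7:115489718-115489777 (minus, exon 15 of 17).
Sox7: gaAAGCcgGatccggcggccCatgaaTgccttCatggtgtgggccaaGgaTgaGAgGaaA
Sox17: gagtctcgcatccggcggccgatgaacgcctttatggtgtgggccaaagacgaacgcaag
Sox18: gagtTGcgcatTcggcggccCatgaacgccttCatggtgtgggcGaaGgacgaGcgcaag
Sox4: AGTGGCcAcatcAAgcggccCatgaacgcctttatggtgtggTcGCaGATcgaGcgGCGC
Sox11: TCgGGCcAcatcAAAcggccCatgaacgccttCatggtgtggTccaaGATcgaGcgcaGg
Sox6: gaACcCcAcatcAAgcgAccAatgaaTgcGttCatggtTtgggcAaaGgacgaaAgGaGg
Sox18 differs from Sox17 at 8 of these 60 bases and Sox7 at 14, against 17 for Sox11, 17 for Sox6 and 21 for Sox4. These counts do not part the C group from the D group, since Sox11 and Sox6 have the same count. Over the whole box of 79 codons, Sox17 and Sox18 shared 82.3% of bases, Sox7 and Sox17 79.7%, and Sox4 and Sox11 88.2%. Between the F and C groups identity was 62.0% to 67.9%, and Sox6 shared 54.4% to 58.2% with the others. On the opposite strand, Sox4 overlaps the long noncoding gene Gm26735 and Sox6 overlaps its antisense transcript Sox6os. Whether the counting used strand is not given in the sources used here, so reads of such pairs cannot be told apart.

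The 1878 EB cells held 50691307 UMIs (median 25547 per cell) and the 775 YS cells held 24184081 (median 28461). Levels are given as CPM, the UMIs of a gene summed over a set of cells for every 1000000 UMIs of that set. Intervals are exact at 95% and carry the error of counting alone; how far another culture or litter would differ is not in them. The libraries shared 2 cell barcodes, where 1.97 would be shared by independent draws. Each library was clustered on its own with the 6 genes left out of the variable genes, and a cluster was named "like" a type only from listed markers. The doublet caller Scrublet picked out 3 cells in EB and 2 in YS, that is 0.160% and 0.258%, where 1.502% and 0.62% would be usual for these cell numbers, and all were kept.

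Taken over all cells, Sox17 and Sox11 were higher in EB, and Sox18 and Sox6 were higher in YS. In that comparison 2 of the 6 genes were at least 2-fold higher in EB, where 18.5% of the 15621 genes compared were, and 2 were at least 2-fold lower in EB, where 21.5% were (40.1% in either direction). A count of 2 among 6 cannot be set apart from that background. Sox17 had 24.5 CPM in EB (23.2 to 25.9) and 4.18 CPM in YS (3.402 to 5.07), a ratio of 5.87 (4.79 to 7.26). Sox11 had 87.8 CPM in EB and 22.6 CPM in YS, a ratio of 3.89 (3.56 to 4.26). Both intervals lie wholly above a ratio of 2.

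Sox18, also of the F group, had 7 UMIs in all EB cells and 39 UMIs in YS cells, 0.138 and 1.61 CPM, so that it was 11.7-fold higher in YS (5.16 to 30.9). Sox6 had 11 UMIs in EB cells and 151 in YS cells, 0.217 and 6.24 CPM, and was 28.8-fold higher in YS (15.6 to 58.9). Sox4 lay within 2-fold, at 137 CPM in EB and 83.5 CPM in YS, a ratio of 1.64 (1.56 to 1.72). Sox7 had 1.78 CPM in EB and 1.199 CPM in YS, and its ratio of 1.48 had an interval from 0.965 to 2.33 that includes no difference. The direction for Sox7 turned with the scaling: as a mean of CPM per cell its log2 ratio was -0.43, against 0.57 from summed UMIs. In a level summed over a library, fewer cells of a type and less RNA per cell cannot be told apart.

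**Figure D1:**
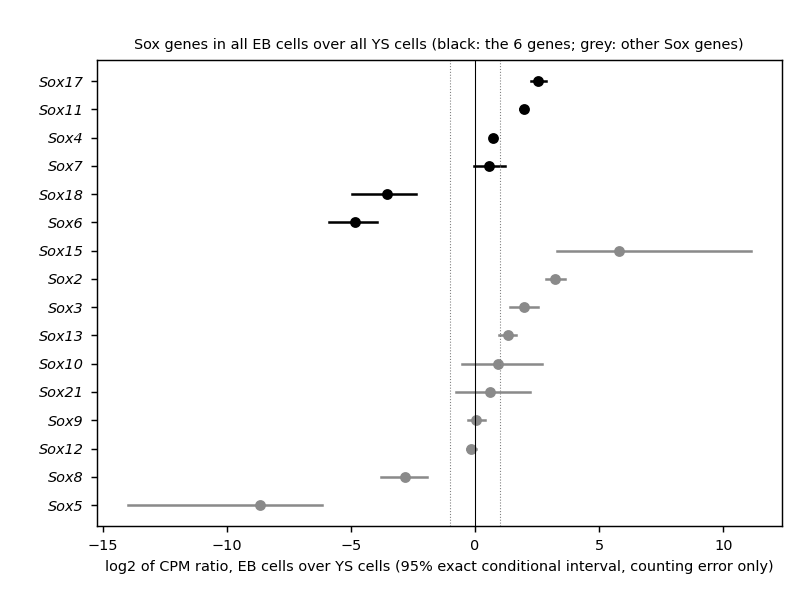
Log2 ratio of CPM in EB cells over YS cells for the 6 genes (black) and for the other Sox genes with at least 10 UMIs (grey), with 95% exact conditional intervals for counting error and dotted lines at 2-fold. Sox17 (2.55) and Sox11 (1.96) lie to the right of the 2-fold line and Sox18 (-3.55) and Sox6 (-4.85) to the left.

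Among clusters the F genes stood in few places, while Sox4 and Sox11 were spread widely. Sox6 lay mainly in the mesothelial-like, smooth muscle-like and mesenchymal and fibroblast-like clusters of YS, called the wall clusters here. Their markers overlapped. The mesothelial-like cluster 1 had 5 of 12 mesothelial and 10 of 12 mesenchymal and fibroblast markers enriched. In the mesenchymal and fibroblast-like cluster 9 these were 7 and 9 of 12. The smooth muscle-like cluster 2 had 6 of 10 smooth muscle and 11 of 12 mesenchymal and fibroblast markers enriched. These names therefore do not part mesothelial from mesenchymal cells. For the question of where Sox17 belongs, 3 clusters were fixed by other genes. The EB cluster with the most Trh (thyrotropin-releasing hormone, here an endoderm marker) was cluster 8 with 123 cells and 1943 CPM of Trh. The EB cluster with the most Lmo2, a partner of Tal1 and Gata factors in blood and endothelial precursors, was cluster 11 with 82 cells and 526 CPM of Lmo2. The YS cluster with the most Cdh5, the VE-cadherin of endothelial junctions, was cluster 7 with 48 cells and 429 CPM of Cdh5.

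Their names were compared with marker lists. Trh, Lmo2 and Cdh5 are on the definitive endoderm, hemangiogenic and endothelial lists, respectively, and are counted there. Part of those counts thus follows from the choice of clusters. The Trh cluster had 7 of 9 definitive endoderm markers enriched, among them Foxa2 and Cer1. Of 12 extraembryonic endoderm markers it had 1 enriched, Spink3, which is on both lists. It also had 5 of 12 epiblast markers enriched (Fgf5, Dnmt3b, Otx2, Epcam and Cdh1), 1 of 12 hemangiogenic markers (Hhex) and 1 of 16 endothelial markers (Flt1). The Lmo2 cluster had 9 of 12 hemangiogenic markers and 6 of 16 endothelial markers enriched, and 0 of 9 definitive endoderm markers. The Cdh5 cluster had 16 of 16 endothelial markers enriched, while its median depth of 13184.5 UMIs was under that of the other clusters chosen (19971 and 21304).

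**Figure D2:**
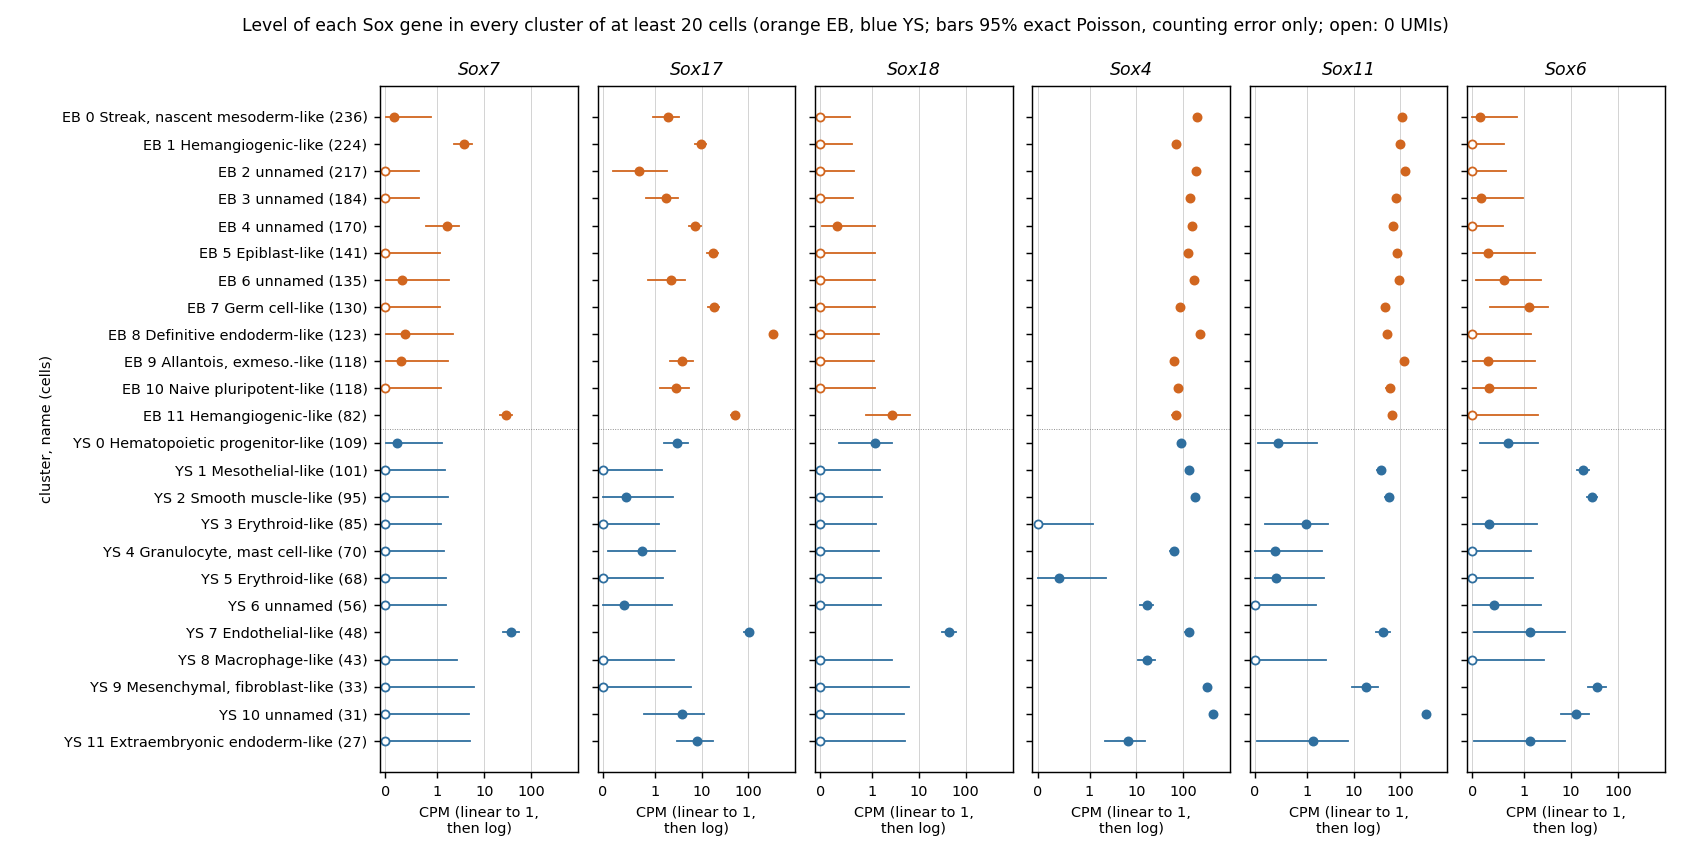
CPM of each of the 6 genes (columns) in each of the 24 clusters of at least 20 cells (rows, EB above YS, with cell numbers), with 95% exact Poisson intervals on an axis that is linear to 1 CPM and logarithmic above it. Sox17 peaks in EB cluster 8 (333.5 CPM), Sox7 and Sox18 in YS cluster 7 (37.7 and 44.4 CPM), Sox4 and Sox11 in YS cluster 10 (433 and 344 CPM) and Sox6 in YS cluster 9 (36.3 CPM).

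Sox17 was foremost a gene of the Trh cluster. There it reached 333.5 CPM (312 to 356), with a UMI in 116 of 123 cells (94.3%), and single cells ranged from 0 to 1434 CPM with a median of 309 CPM. That cluster, with 6.55% of the EB cells, held 873 of the 1242 Sox17 UMIs of EB, or 70.3% (67.7 to 72.8). The Lmo2 cluster came second in EB with 52.2 CPM (42.3 to 63.7), a UMI in 29 of 82 cells (35.4%) and 7.73% of the UMIs. Its cells ran from 0 to 411 CPM, with a median of 0, and 39.6% of its Sox17 UMIs were in 5 cells. Sox17 was thus 6.39-fold higher in the Trh cluster than in the Lmo2 cluster (5.17 to 7.97), and the intervals of the levels do not overlap.

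Of the genes with at least 10 UMIs in these clusters together, 10.8% of 10257 were at least 2-fold higher in the Trh cluster and 8.47% at least 2-fold lower (19.2% in either direction). Among the 6, Sox17 and Sox4 were at least 2-fold higher, Sox7 was lower, Sox11 lay within 2-fold, and Sox18 and Sox6 had too few UMIs to compare. With gates in place of clusters Sox4 too lay within 2-fold. The size of the Sox17 ratio depended on how finely the cells were divided: at a Leiden resolution of 0.6 it was 3.97 on the log2 scale, against 2.68, where the cluster with the most Lmo2 was a broader one with 21.4 CPM of Sox17. The Trh cluster had the more Sox17 under each setting run.

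Sox17 UMIs in the Lmo2 cluster were also set against Trh itself. There were 17.2 Sox17 UMIs for every 100 Trh UMIs in the Trh cluster, 72.2 in the Lmo2 cluster and 9.64 in the empty droplets of the EB library. In the Lmo2 cluster, 35 cells with a Trh UMI had 68.0 CPM of Sox17 (50.6 to 89.4) and 47 cells with none had 41.3 CPM (30.1 to 55.3). These intervals overlap, and a Sox17 UMI was seen in 12 of the 35 cells (34.3%) and 17 of the 47 (36.2%). At this depth a cell with no Trh UMI may still have expressed Trh. RNA free in the suspension, read from the empty droplets, would put a Sox17 UMI in 0.349% of EB cells, and in unnamed EB cluster 2, led by Lmo1, Frzb and Lhx1, 4 of 217 cells (1.84%, median 24390 UMIs) had one.

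Some markers of the other lineage were low on each side and others were not. Foxa2, a forkhead factor that opens chromatin in endoderm, had 56.2 CPM in the Trh cluster and 1.63 CPM in the Lmo2 cluster. Fli1, an ETS factor of blood and endothelium, had 0 UMIs in the Trh cluster, which allows up to 1.15 CPM, and 81.5 CPM in the Lmo2 cluster. On the other hand the Trh cluster had 98.2 CPM of Etv2 and 52.3 CPM of Lmo2, and the Lmo2 cluster had 72.3 CPM of Trh. In the Trh cluster the 25 cells with an Lmo2 UMI had 150 CPM of Sox17 and the 98 cells with none had 402 CPM. The 25 cells were deeper, with a median of 26142 UMIs against 18713.5. They had more Tal1 (32.3 against 1.57 CPM) and Kdr (73.1 against 9.97 CPM) and less Cer1 (56.2 against 166 CPM). Fli1 had 0 UMIs in both sets. The part of depth in the Sox17 difference was not tested.

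Cells were also divided by the levels of Trh and Lmo2 alone, without clusters. The 215 cells with at least 200 CPM of Trh and under 50 CPM of Lmo2 had 140 CPM of Sox17, with a UMI in 44.7% of them. The 122 cells with at least 200 CPM of Lmo2 and under 50 CPM of Trh had 31.0 CPM of Sox17, with a UMI in 23.0%. High Trh therefore reached beyond the Sox17-rich cells: the naive pluripotent-like cluster had 438 CPM of Trh and 2.84 CPM of Sox17.

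Another 20 EB cells had at least 200 CPM of both Trh and Lmo2, and their Sox17 was 91.98 CPM (67.6 to 122). Their median depth was 25504 UMIs, against 25547 in all EB cells. It was 19971 in the Trh cluster and 21304 in the Lmo2 cluster. In the 215 and the 122 cells divided off above it was 22693 and 24939. The 20 cells had 5.87 CPM of Foxa2 and 19.6 CPM of Fli1. The part that doublets play in these cells was not tested.

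**Figure D3:**
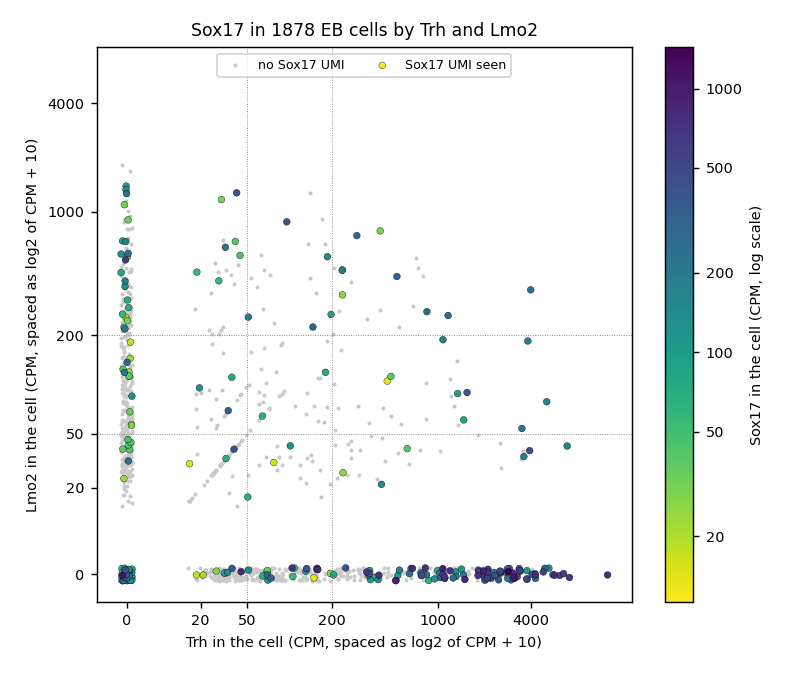
Each of the 1878 EB cells by its CPM of Trh (x axis) and Lmo2 (y axis), both spaced as log2 of CPM + 10, with Sox17 CPM as colour on a log scale and cells without a Sox17 UMI in grey. Dotted lines mark 50 and 200 CPM, and cells at 0 are spread slightly for visibility. Most of the darkest cells, those with the most Sox17, lie along the Trh axis without Lmo2, and fewer and mostly lighter ones lie along the Lmo2 axis.

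Outside these clusters Sox17 was seen at lower levels in EB. The germ cell-like cluster 7 had 18.0 CPM, with a UMI in 24 of 130 cells (18.5%). The epiblast-like cluster 5 had 17.4 CPM, but 94.6% of those UMIs were in 5 cells, so the level there is that of a few cells. Hemangiogenic-like cluster 1, the larger and Lmo2-poorer of that name (137 CPM of Lmo2), had 9.72 CPM (7.38 to 12.56), and 72.4% of its UMIs were in 5 cells. The remaining EB clusters had between 0.705 and 7.40 CPM.

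In YS, Sox17 was a gene of the endothelial-like Cdh5 cluster, which held 74.3% of the Sox17 UMIs. Its level there was 100.9 CPM (79.4 to 127), with a UMI in 29 of 48 cells (60.4%) and 45.3% of the cluster's Sox17 UMIs in 5 cells. Cells ran from 0 to 363 CPM with a median of 85.7 CPM. In the hematopoietic progenitor-like cluster it was 2.94 CPM, with a UMI in 10 of 109 cells, and in the extraembryonic endoderm-like cluster 8.03 CPM (2.95 to 17.5), from 6 UMIs in 4 of 27 cells. The endoderm of EB and that of YS thus stood apart in Sox17, with 333.5 CPM in the EB Trh cluster and 8.03 CPM in the YS extraembryonic endoderm-like cluster. Free RNA would give a Sox17 UMI in 0.0350% of YS cells. No Sox17 UMI was found in 153 erythroid-like cells, which allows a share of up to 1.96% with a UMI.

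Between the libraries, Sox17 was 52.2 CPM in the EB Lmo2 cluster and 100.9 CPM in the YS Cdh5 cluster, a ratio of 0.517 (0.378 to 0.709). That interval counts UMIs as independent and does not cover the unevenness among cells. In this pair 14.8% of 9550 genes were at least 2-fold higher in the EB cluster and 26.2% at least 2-fold lower (41.0% in either direction). Of the 5 members with enough UMIs none was 2-fold higher, Sox18 was lower, and Sox7, Sox17, Sox4 and Sox11 lay within 2-fold. Only the call of Sox18 held under all 10 alternatives run. Sox17 and Sox4 were each more than 2-fold lower in the EB cluster under 5 of the 10 (lowest ratios 0.212 and 0.409), Sox7 under 1 of them, and Sox11 was more than 2-fold higher under 2 of them (up to 2.39). With each cell thinned to 6000 UMIs, Sox17 had a UMI in 19.5% of the EB Lmo2 cells and 31.25% of the YS Cdh5 cells. On the log2 scale the ratio was -0.95, and it was -2.24 at resolution 0.6 and -1.59 between cells gated on at least 200 CPM of Lmo2 in EB and at least 100 CPM of Cdh5 in YS.

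Sox7, the F gene known to act early in hemangiogenic mesoderm, lay mainly in the Lmo2 cluster in EB. It had 29.4 CPM (22.1 to 38.3) in the EB Lmo2 cluster, with a UMI in 31 of 82 cells, and that cluster held 60.0% of its 90 EB UMIs. In the YS Cdh5 cluster it had 37.7 CPM (25.04 to 54.5), with a UMI in 16 of 48 cells, and that cluster held 28 of its 29 YS UMIs. The share of Sox7 UMIs in 5 cells was 33.3% in the EB Lmo2 cluster and 57.1% in the YS Cdh5 cluster. These levels, the first and the second in order, do not differ beyond their intervals (ratio of EB over YS 0.779, 0.485 to 1.28). At resolution 0.6, however, Sox7 had 9.64 CPM in the broader EB Lmo2 cluster, a ratio of 0.256, and with gates it had 17.7 CPM in EB and 32.7 CPM in YS, a ratio of 0.541. Thinned to 6000 UMIs, 14.6% of the EB Lmo2 cells and 12.5% of the YS Cdh5 cells had a Sox7 UMI.

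The other hemangiogenic-like EB cluster, cluster 1, came next for Sox7 with 3.69 CPM (2.31 to 5.58). Unnamed cluster 4 followed with 1.61 CPM, all of it in 5 cells. The Trh cluster had 1 Sox7 UMI in 123 cells (0.382 CPM), so the F genes parted there: Sox17 was at its highest and Sox7 close to absent. No Sox7 UMI was found in EB cluster 2 or in the pooled wall clusters of YS.

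Sox18, which in mouse embryos marks endothelium as vessels form, was almost wholly a YS gene. In the YS Cdh5 cluster it had 44.4 CPM (30.6 to 62.4), with a UMI in 22 of 48 cells (45.8%), and 84.6% of its YS UMIs were there. The EB Lmo2 cluster had 5 Sox18 UMIs in 5 cells, 2.72 CPM (0.883 to 6.34), and the Trh cluster had none. Sox18 was therefore 16.3-fold higher in the YS cluster (6.34 to 53.6), a size that moved to 59.9-fold at resolution 0.6 and 42.9-fold with gates. In the hematopoietic progenitor-like cluster it was 1.13 CPM from 5 UMIs, and 0 UMIs were found in the erythroid-like cells.

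Cells with several F genes at once were counted next. In the EB Lmo2 cluster 48 of 82 cells had a UMI of at least 1 of the 3, and 13 cells had both Sox7 and Sox17, which is 41.9% of the Sox7 cells and 44.8% of the Sox17 cells. In the YS Cdh5 cluster 40 of 48 cells had at least 1, 10 cells had both Sox7 and Sox17 (62.5% of the Sox7 cells and 34.5% of the Sox17 cells), and 6 cells had all 3. All 3 were seen in 3 cells of the EB Lmo2 cluster. In the Trh cluster 115 of 123 cells had Sox17 alone of the 3. In the EB Lmo2 cluster depth moved with these counts: cells with any F gene had a median of 26352 UMIs and those with none 15696.5. These medians were 20074.5 and 14551 in the Trh cluster, and close in the YS Cdh5 cluster, at 13184.5 and 12584.5. The part of depth in the counts was not tested.

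**Figure D4:**
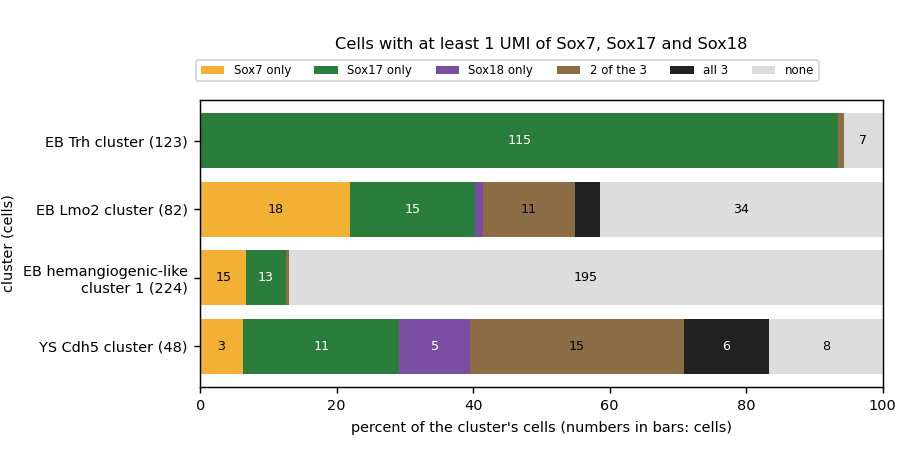
Percent of the cells of each cluster (rows) in which at least 1 UMI was seen of Sox7 only, Sox17 only, Sox18 only, exactly 2 of these, all 3 or none, with cell numbers in the bars. The EB Trh cluster is nearly all Sox17 only (115 of 123 cells), while the EB Lmo2 and YS Cdh5 clusters hold mixtures.

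The genes around the F group in these clusters were read from fixed lists. In the Trh cluster against the Lmo2 cluster, 14 of 15 definitive endoderm genes were at least 2-fold higher and none was lower, a description of clusters chosen for that difference. The highest were Otx2, an anterior homeobox factor that is also on the epiblast list (at least 55.3-fold, with 236 UMIs in the Trh cluster and 0 in the Lmo2 cluster), Foxa2 (34.4-fold) and Cer1, a secreted inhibitor of Nodal and BMP (31.3-fold). The lowest were Gata4 (1.89-fold), Krt18 (2.66-fold) and Gata6 (2.98-fold). Of 10 visceral endoderm genes 3 had enough UMIs, and Hnf4a (at least 2.58-fold) and Rbp4 (2.31-fold) were higher in the Trh cluster, while Afp and Apob had 0 UMIs in both.

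Hemangiogenic factors ran the other way, with 9 of 10 at least 2-fold lower in the Trh cluster. Lmo2 is on that list, so part of this count again follows from the choice of clusters. The greatest differences were for Fli1 (at least 71.1-fold lower), the zinc finger factor Gata2 (19.0-fold lower) and the helix-loop-helix factor Lyl1 (at least 13.3-fold lower). Etv2, the ETS factor that starts the hemangiogenic program, differed least, at 98.2 CPM in the Trh cluster and 196 CPM in the Lmo2 cluster. Of 20 endothelial and arterial genes 12 had enough UMIs, and 9 of them were at least 2-fold lower in the Trh cluster. Cldn5, a claudin of endothelial tight junctions, was 19.9-fold lower, and the semaphorin co-receptor Nrp1 (ratio 0.852) and Notch4 (ratio 0.803) were within 2-fold.

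Set against the YS Cdh5 cluster, the EB Lmo2 cluster had less of most endothelial genes. There 15 of 20 endothelial and arterial genes were at least 2-fold lower in the EB Lmo2 cluster and 2 were higher. Over all 9550 genes compared, these shares were 26.2% and 14.8%. Cdh5 is on this list and Lmo2 is on the list of hemangiogenic factors. Part of the counts from both lists thus follows from the choice of clusters. The adhesion receptor Pecam1 had 1.63 CPM in the EB Lmo2 cluster and 237 CPM in the YS Cdh5 cluster, from 3 and 176 UMIs. The MADS-box factor Mef2c had 0.544 CPM (1 UMI) in the EB Lmo2 cluster and 88.8 CPM in the YS Cdh5 cluster. The globin Hbb-y, a red cell gene, had 0 UMIs in the EB Lmo2 cluster and 246 CPM in the YS Cdh5 cluster, and its part in these values was not tested. Hey1, a target of Notch, was 8.68-fold higher in the EB Lmo2 cluster (3.27 to 32.6) and Hey2 2.22-fold higher (0.485 to 20.6). Of the hemangiogenic factors 5 of 10 were higher in the EB Lmo2 cluster and 3 lower. Etv2 was at least 48.6-fold higher (0 UMIs in the YS Cdh5 cluster) and Tal1 7.78-fold higher, while Erg, an ETS factor of mature endothelium, had 6.52 CPM in the EB Lmo2 cluster and 47.1 CPM in the YS Cdh5 cluster.

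**Figure D5:**
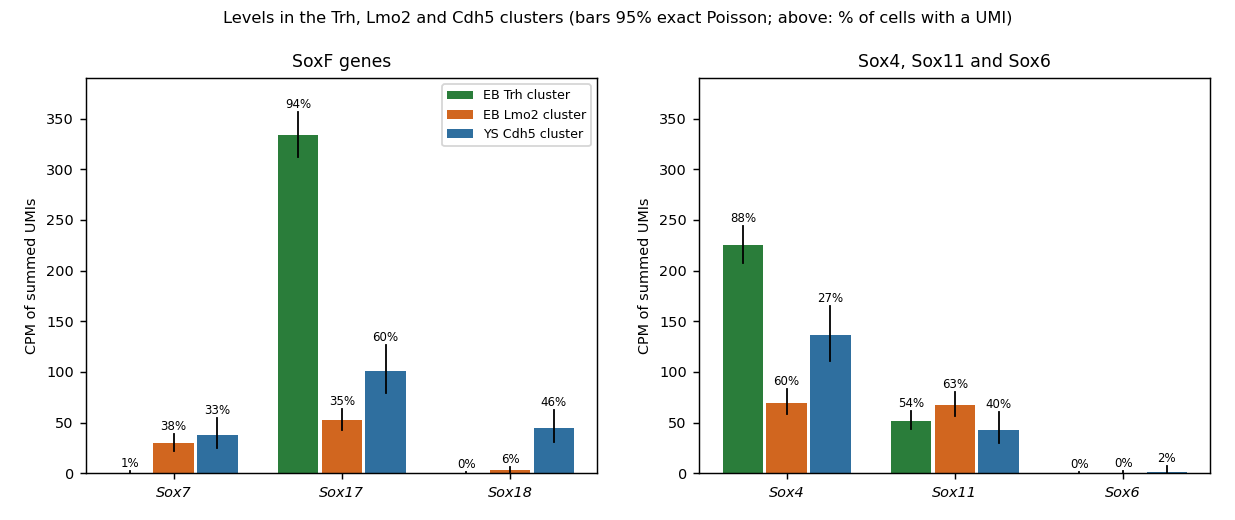
CPM of the 6 genes in the EB Trh, EB Lmo2 and YS Cdh5 clusters (bars, with 95% exact Poisson intervals as lines and the percent of cells with a UMI above). Bars are to be compared within a gene. Sox17 is highest in the EB Trh cluster, Sox18 is seen mainly in the YS Cdh5 cluster, and Sox6 is near 0 in all 3.

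Sox4 was found in every EB cluster and in most YS clusters other than red cells. In EB its level ran from 63.4 CPM in cluster 9, like allantois and extraembryonic mesoderm, to 225 CPM (207 to 244) in the Trh cluster, where 108 of 123 cells had a UMI. The primitive streak-like cluster 0 followed with 195 CPM and cluster 2 with 192 CPM. The hemangiogenic-like clusters were among the lowest of EB, at 69.7 CPM in cluster 1 and 69.6 CPM in the Lmo2 cluster, so Sox4 was 3.23-fold higher in the Trh cluster than in the Lmo2 cluster (2.67 to 3.95). Between the gated cells it was 150 CPM with Trh and 95.3 CPM with Lmo2, a ratio of 1.57. Sox4 and Sox17 were thus both highest, within EB, in the Trh cluster.

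In YS the range of Sox4 was wider. Unnamed cluster 10 had 433 CPM (388 to 482), the mesenchymal and fibroblast-like cluster 9 had 320 CPM (276 to 368), and the smooth muscle-like and mesothelial-like clusters had 181 and 130 CPM. Neighbours in the order of levels from EB cluster 0 (195 CPM) down to EB cluster 5 (124 CPM) do not differ beyond their intervals. Among the named blood clusters, the hematopoietic progenitor-like cluster had 89.1 CPM. The granulocyte and mast cell-like cluster had 62.8 CPM and the macrophage-like cluster 16.9 CPM. In these, 5 cells held 35.0%, 45.8% and 79.2% of the Sox4 UMIs. Markers were mixed in the granulocyte and mast cell-like cluster. It had 3 of 12 markers of its own list enriched (Mpo, Prtn3 and Srgn). Of 12 hematopoietic progenitor markers it had 6 enriched, among them Cd34 and Kit. The order of these Sox4 levels thus cannot be read as steps from progenitors to mature granulocytes or mast cells. Unnamed cluster 6, with 3 of 11 erythroid and 5 of 12 megakaryocyte markers enriched, had 16.6 CPM. The 153 erythroid-like cells had 1 Sox4 UMI, although their median depths were 31993 and 34237 UMIs.

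In the EB Lmo2 cluster 49 of 82 cells (59.8%) had a Sox4 UMI, at a level of 69.6 CPM. In the YS Cdh5 cluster Sox4 reached 136 CPM (111 to 165) but was seen in 13 of 48 cells only, and 81.2% of its 101 UMIs were in 5 cells. The highest cell had 38 UMIs, or 1371 CPM, and the median cell had none. The interval for the YS level, which counts UMIs as independent, does not cover such unevenness among cells.

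Sox11 was found in every EB cluster, from 47.5 CPM (40.3 to 55.7) in the germ cell-like cluster to 122 CPM (113 to 132) in cluster 2, and the allantois and extraembryonic mesoderm-like (118 CPM) and primitive streak-like (110 CPM) clusters were next. The Trh cluster had 52.0 CPM (43.6 to 61.5) and the Lmo2 cluster 67.4 CPM (56.1 to 80.4), a ratio of 0.771 (0.5998 to 0.991). The allantois and extraembryonic mesoderm-like cluster was thus last in EB for Sox4, though not beyond the intervals of its neighbours, and second for Sox11. A UMI of both genes was seen in 1212 of 1878 EB cells (64.5%), from 34.6% of the germ cell-like to 85.3% of cluster 2 cells. From free RNA alone, 1.73% of EB cells would show Sox4 and 2.21% would show Sox11.

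In YS, Sox11 parted from Sox4 in blood. The hematopoietic progenitor-like, granulocyte and mast cell-like and macrophage-like clusters together had 584 Sox4 UMIs in 222 cells (68.8 CPM) and 3 Sox11 UMIs (0.353 CPM). Sox11 was 56.3 CPM in the smooth muscle-like, 43.1 CPM in the Cdh5, 38.8 CPM in the mesothelial-like and 18.1 CPM in the mesenchymal and fibroblast-like cluster. The 153 erythroid-like cells had 4 UMIs. A UMI of both Sox4 and Sox11 was seen in 128 of 775 YS cells (16.5%).

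Unnamed YS cluster 10, with 31 cells, held 48.7% of the Sox11 UMIs of YS, at 344 CPM (304 to 388) with a UMI in 30 of 31 cells, and 16.6% of its Sox4 UMIs. Its leading genes were Id2, Crabp2, Sox11, Id3, Ddit4 and Meox1, it also had 73.7 CPM of Sox2 and 51.7 CPM of Sox9, and no marker list named it. Markers of several lists were enriched in part. They were 4 of 9 for definitive endoderm (Foxa2, Cldn6, Gata6 and Spink3), 3 of 11 for paraxial mesoderm and 3 of 12 for mesenchymal and fibroblast. Scrublet marked 1 of its cells. Without that cluster, an alternative chosen after seeing the data, the log2 ratio of Sox11 in EB over YS was 2.88, against 1.96 with it.

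In YS, Sox6 was mainly a gene of the wall clusters. The pooled mesothelial-like, smooth muscle-like and mesenchymal and fibroblast-like clusters, 238 cells with a small cluster of 9 cells included, had 24.2 CPM (20.3 to 28.7), a UMI in 88 cells (37.0%) and 88.7% of the 151 Sox6 UMIs of YS. By cluster it was 36.3 CPM (22.7 to 54.9) in the mesenchymal and fibroblast-like, 28.2 CPM (21.6 to 36.0) in the smooth muscle-like and 18.0 CPM (13.2 to 24.03) in the mesothelial-like cluster, followed by 12.9 CPM in unnamed cluster 10. Neighbours in this order do not differ beyond their intervals. No YS cluster outside these 4 with at least 20 cells exceeded 1.35 CPM.

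Red cells showed next to none of it. The 153 erythroid-like cells had 1 Sox6 UMI, 0.183 CPM (0.00462 to 1.02), while the embryonic globin Hbb-y had 769956 UMIs in YS cells and 0 in EB cells. At these stages red cells are mainly of the primitive lineage, and most Ter119-positive cells had been sorted out. In EB the 11 Sox6 UMIs lay in 11 cells, 4 of them germ cell-like, and the empty droplets of EB held none.

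Sox5, the partner of Sox6, had much the same distribution. It had 1 UMI in EB cells and 195 UMIs in YS cells, and reached 54.4 CPM in the mesenchymal and fibroblast-like, 31.3 CPM in the smooth muscle-like and 27.8 CPM in the mesothelial-like cluster. A UMI of Sox6 and one of Sox5 occurred together in 51 YS cells, which is 50.0% of the 102 Sox6 cells and 44.7% of the 114 Sox5 cells.

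The genes whose levels most resembled each member were ranked by Pearson correlation of log2(CPM + 10) over the 24 clusters, among 8386 genes. The clusters share their libraries, so the correlations are descriptions, and for Sox18 a single high cluster, the YS Cdh5 cluster, sets most of the value. Sox18 was followed by Sost (0.997), Robo4 (0.997) and Dll4 (0.995), and the last is the Notch ligand of arteries and sprouting tips. Sox7 was followed by Myzap (0.937), Gja4 (0.914), a connexin of arterial endothelium, and Bcl6b (0.913). For Sox17 the nearest were Trp53i11 (0.836), Prss1 (0.798) and Itpr3 (0.796), values lower than for any other member. Sox6 was nearest to Saa1 (0.994), Sox5 (0.992) and Hoxc8 (0.988).

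For the C group, Sox11 was nearest to Tead2 (0.948), a DNA-binding partner of Yap, then Zfp532 and Dennd2a (0.932 and 0.931), and Sox4 to Mettl9 (0.928), Phip (0.927) and Ehmt1 (0.920). Among the members themselves, Sox7 and Sox18 (0.814) and Sox4 and Sox11 (0.744) were the most alike. Sox17 correlated with Sox7 at 0.568 and with Sox18 at 0.486. By Spearman correlation Sox7 and Sox18 (0.658) were again the most alike, but Sox7 and Sox17 (0.622) came before Sox4 and Sox11 (0.574). By Spearman correlation the 3 nearest genes were shared with the Pearson ranking for few members: 1 of 3 for Sox18, 2 of 3 for Sox11 and none for Sox7, Sox17, Sox4 and Sox6.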

How the data were processed

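Each library is 1 deposited matrix of raw counts, with genes as rows and cell barcodes as columns, and each count is a number of UMIs per gene and barcode as the authors deposited it, with no normalization. Each file lists 737280 barcodes, so the matrices were not filtered for cells. Reads were placed on mm10, per the submitters' processing notes, while the sources used here name no aligner, counter, version or use of strand. The cell limits were 10% of the 99th percentile of the 3000 largest barcode totals and at most 10% mitochondrial UMIs.

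Counts were scaled to 10000 per cell, and 2000 variable genes without the 6 members, 30 principal components, 15 neighbours and Leiden resolution 1 gave the clusters (scanpy 1.11.5, leidenalg 0.10.2, Python 3.11.15, scipy 1.17.1). A cluster was named from at least 3 enriched markers with a mean log2 difference of at least 0.5 and at least 2 markers among its 10 leading genes, and this rule was written after the clusters were seen. Empty droplets were the barcodes ranked 10001 to 50000 by total. A gene was compared from 10 UMIs in both groups together, and 2-fold was the limit for higher or lower. Intervals are exact at 95% (Poisson for levels, conditional binomial for ratios, Clopper-Pearson for shares). A count of 0 was replaced by a floor of 3 counts in a lower bound. UMIs are counted, yet molecules of 1 cell are not independent of each other, so intervals and floors cover counting error only. The interval procedure was run on simulated independent Poisson counts, the model that it assumes. Such counts hold no clumping of UMIs within cells, so the run cannot show how the intervals hold there. The members and gene lists were chosen with earlier results of these data known. Genes named from a list were the 3 highest and the 3 lowest ratios of that list, with others named only where a cluster was chosen or checked by them or where a gene's contrast is described, those being chosen after their values were seen. The alternatives tried were other limits on cells, doublets and large cells left out, free RNA subtracted, other scalings, other clusterings and gates on Trh, Lmo2 and Cdh5.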

Additional observations from a re-analysis of the deposited data

Results flagged for a closer look

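Barcodes that passed the UMI minimum but exceeded 10% mitochondrial UMIs, 142 in EB and 26 in YS, entered no comparison and were read as data outside the main measurement. In EB they had Sox17 at 18.5 CPM (24.5 CPM in the cells kept), Sox4 at 178 CPM (137 CPM in the cells kept) and Sox11 at 159 CPM (87.8 CPM in the cells kept), all above the 2.65 CPM that a count of 0 allows. In YS they had Sox4 at 18.7 CPM (83.5 CPM in the cells kept) and Sox11 at 14.9 CPM (22.6 CPM in the cells kept), above the 11.2 CPM that a count of 0 allows, from 5 and 4 UMIs.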

How the results depend on the processing

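Of the alternatives run, none reversed the Sox17 ratios between the chosen clusters or changed the 2 members at least 2-fold higher in EB. The log2 ratio of Sox17 in the EB Trh cluster over the EB Lmo2 cluster was 2.68, and it moved to 3.10 with a mitochondrial limit of 5%, 3.97 at Leiden resolution 0.6 and 2.18 with gates in place of clusters. Over the YS Cdh5 cluster, the log2 ratio of the EB Lmo2 cluster was -0.95, and it moved to -2.24 at resolution 0.6 and -1.59 with gates. It also passed the 2-fold limit with the higher UMI minimum (-1.35), the mitochondrial limit of 5% (-1.37) and fewer variable genes (-1.08), so that Sox17 was within 2-fold under 5 of 10 alternatives. The share of EB Sox17 UMIs in the Trh cluster was 70.3%, against 74.6% by the mean of CPM per cell and 57.9% in the Trh gate. With members limited to at least 100 UMIs, 1 member (Sox6) was at least 2-fold higher in YS in place of 2, since Sox18 was no longer counted. Of 54 log2 ratios of EB over YS under alternatives, 42 moved by less than their interval and 12 by more. The causes of these moves were not tested, beyond what fewer cells or another grouping make by construction. Depth limits what can be said of Sox7, Sox18 and Sox6, with 90, 7 and 11 UMIs in EB and 29, 39 and 151 UMIs in YS. No paired analysis was possible because each group is 1 library.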

Other observations

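Other genes of the family, outside the 6, had places of their own. Sox2, the pluripotency and neural factor, had 23.3 CPM in EB and 2.48 CPM in YS, and within EB it was highest in the naive pluripotent-like (133 CPM) and germ cell-like (61.2 CPM) clusters. Sox3 was highest in the germ cell-like cluster at 39.4 CPM. Sox15 had 2.29 CPM in EB, with 16.4 CPM in the naive pluripotent-like cluster, and 1 UMI in YS. Sox9, a factor of cartilage and other progenitors, had 4.40 CPM in EB and 4.26 CPM in YS, with 51.7 CPM in unnamed YS cluster 10. Sox12, the remaining C gene, had 12.7 CPM in EB and 14.02 CPM in YS, and Sox13, the remaining D gene, had 8.62 CPM in EB and 3.47 CPM in YS. Of 13 other Sox genes 10 had enough UMIs, of which 4 were at least 2-fold higher in EB and 2 at least 2-fold lower. Over all 15621 genes compared, 18.5% were higher and 21.5% lower. Whether the counts among these Sox genes differ from that background was not tested.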
